A study of Mus musculus with 12 samples.

Results

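The Krüppel-like factor genes described here were the 10 members Klf2, Klf3, Klf4, Klf5, Klf6, Klf7, Klf9, Klf10, Klf13 and Klf15, picked by symbol from an FPKM table with 55092 features. The 12 libraries were made from poly(A) RNA of the infrarenal abdominal aorta of male mice, with 3 mice in each of 4 groups. CFS mice (CCN2fl/fl, numbers 68, 69 and 70) and CSS mice (CCN2SMCΔ, numbers 54, 55 and 56) were infused with saline. CFA mice (CCN2fl/fl, numbers 71, 72 and 74) and CSA mice (CCN2SMCΔ, numbers 01, 02 and 03) were infused with Ang II, the vasopressor peptide angiotensin II, at 500 ng/kg/min through mini-osmotic pumps, and infusions lasted 7 days. All 4 groups carried the floxed Ccn2 allele, and all received 5 tamoxifen doses at 8 weeks of age with a washout of 2 weeks. The CCN2SMCΔ mice also carried Myh11-Cre-ERT2, a tamoxifen-dependent recombinase driven by the smooth muscle myosin heavy chain promoter, and the CCN2fl/fl mice had no Cre. Cells of the aortic wall in which this promoter is not active keep Ccn2, which encodes the matricellular protein CCN2. The study asked how loss of CCN2 in smooth muscle alters gene expression in the aorta under saline and under Ang II.

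Krüppel-like factors are zinc finger transcription factors that bind GC-rich and CACCC sequences, and they act as activators or repressors depending on the domain beside the zinc fingers and on the co-regulator it recruits. In the vessel wall, Klf2 and Klf4 are known as flow-responsive factors of endothelium, Klf4 and Klf5 for their part in the switch of smooth muscle cells away from the contractile state, and Klf15 for restraining vascular inflammation and for control of amino acid and glucose metabolism. Klf9 and Klf15 are glucocorticoid-induced, Klf10 is an early target of TGF-β, and Klf2, Klf4 and Klf6 are also expressed in leukocytes. The RNA was taken from whole aortic tissue, so fewer cells of a type and less RNA per cell cannot be told apart in any value below.

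For the members named most often below, the 250 bases before the RefSeq transcription start (build GRCm38.p6) are printed 5′ to 3′ on the strand of the gene. Klf9 and Klf15 are shown because they had the lowest CSA levels relative to CFA, Klf4 because of its place in vascular biology, and Klf6 as a member whose level stayed close to that of CFA. Capitals mark, on either strand, the letters CACCC (the core of the sequence that Krüppel-like factors bind), the GC box with the letters GGGCGG and the E-box with the letters CACGTG. The Klf9 sequence lies at chr19:23140976-23141225 on the plus strand, Klf15 at chr6:90462326-90462575 on the plus strand, Klf4 at chr4:55532476-55532725 on the minus strand and Klf6 at chr13:5861239-5861488 on the plus strand, the last 7 bases of which lie inside the first exon of the GENCODE model.
Klf9: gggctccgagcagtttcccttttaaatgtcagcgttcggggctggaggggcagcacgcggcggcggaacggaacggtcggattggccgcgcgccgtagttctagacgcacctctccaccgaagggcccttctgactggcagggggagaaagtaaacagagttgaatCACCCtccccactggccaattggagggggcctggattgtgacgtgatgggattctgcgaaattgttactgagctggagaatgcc
Klf15: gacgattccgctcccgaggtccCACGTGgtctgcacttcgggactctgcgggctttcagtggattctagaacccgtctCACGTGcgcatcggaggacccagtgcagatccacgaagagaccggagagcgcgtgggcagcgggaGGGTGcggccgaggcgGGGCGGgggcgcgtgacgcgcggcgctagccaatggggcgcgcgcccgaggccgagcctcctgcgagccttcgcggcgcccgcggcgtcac
Klf4: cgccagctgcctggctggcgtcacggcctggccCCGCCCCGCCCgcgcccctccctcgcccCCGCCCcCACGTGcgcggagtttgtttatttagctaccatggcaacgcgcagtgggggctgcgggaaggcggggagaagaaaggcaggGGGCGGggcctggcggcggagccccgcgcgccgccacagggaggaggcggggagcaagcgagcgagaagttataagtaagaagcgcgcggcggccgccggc
Klf6: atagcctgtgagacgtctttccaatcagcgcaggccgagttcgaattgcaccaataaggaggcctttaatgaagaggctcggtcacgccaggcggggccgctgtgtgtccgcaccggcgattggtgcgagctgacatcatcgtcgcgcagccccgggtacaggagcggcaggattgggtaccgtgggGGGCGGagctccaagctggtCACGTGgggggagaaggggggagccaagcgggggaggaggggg

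RefSeq promoter sequences were at hand for 8 of the 10 members, all but Klf5 and Klf10. CACCC was present in 6 of the 8 windows, against 52.0% of all 32851 RefSeq promoter windows of that length, and the 2 without it were Klf4 and Klf6. GGGCGG was present in 7 of the 8 windows, against 32.7% of all windows, with 4 matches in Klf4, 1 in Klf15, 1 in Klf6 and 0 in Klf9. CACGTG was found 2 times in Klf15, 1 time in Klf4 and 1 time in Klf6, and in 6.02% of all windows. Neither TATAAA (12.4% of all windows) nor a CArG box, the sequence bound by serum response factor (1.47% of all windows), was found in any of the 8. Both strands were searched, and matches of the CACCC letters may overlap those of the GC box. The 8 windows had a GC content of 59.2% to 78.4%, and the set of all windows was not matched for it. The matches are letters in a window and say nothing about binding.

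Recovered fragments ranged from 14558569 to 23107769 per library. This put 80 to 10312 fragments behind each value of the members other than Klf5 and 33 to 227 behind each Klf5 value. The Klf9 counts, which hold the upper end, did not come out whole (10311.7 in CSS mouse 54) and are approximate. For Klf5, 3 fragments correspond to at most 0.0376 FPKM. All 10 members passed the filter of at least 1 FPKM in at least 3 libraries, as did 14676 of the 55092 features. Ccn2 measured 564 to 1105 FPKM in CFA and 255 to 399 in CSA (log2 fold change -1.41, adjusted p = 0.00622, limma with Benjamini-Hochberg adjustment over all tested genes). It measured 480 to 1108 FPKM in CFS and 436 to 640 in CSS, which overlap. These FPKM cover the whole gene and the wall's other cells, so they check the labels only in part. The library of CSA mouse 03 stood apart by the GC content of the transcripts. Its genes in the fifth with the highest GC content lay lower than those in the fifth with the lowest by 1.45 on the log2 scale (median deviation from the 12-library mean, -1.45), whereas this difference was -0.06 to 0.29 in the other 11 libraries. Among the members, transcript GC content runs from 42.4% in Klf6 to 61.6% in Klf2, so results for CSA are given with and without that library wherever it changes a call.

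**Figure D1:**
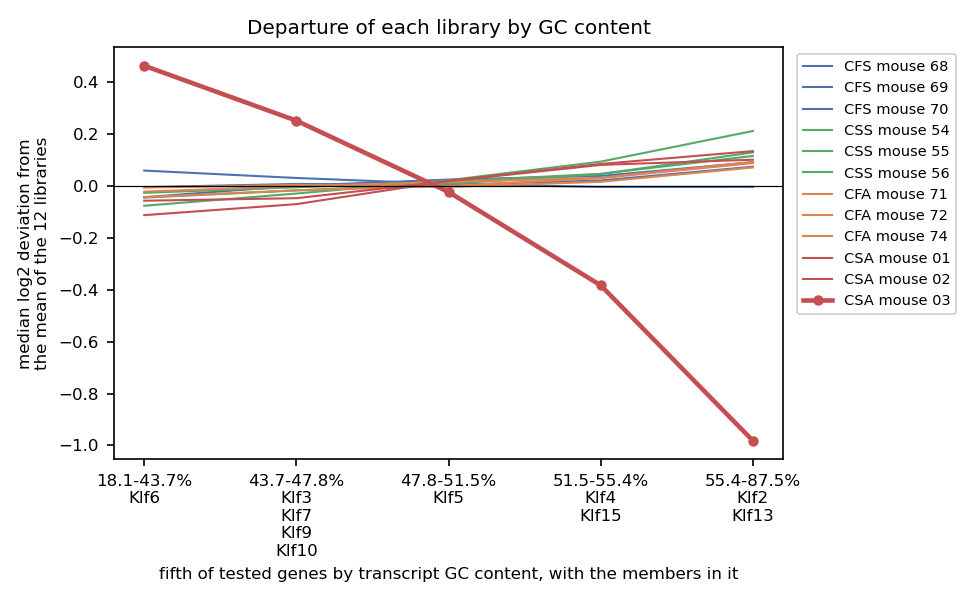
Median log2 deviation of each library from the mean of the 12 libraries (y axis) in 5 equal groups of tested genes by transcript GC content (x axis, with the members in each group), with lines coloured by group. CSA mouse 03 falls across the groups of genes by 1.45 in all, and the 11 other libraries stay close to 0; Klf6 lies in the group with the lowest GC content and Klf2 and Klf13 in that with the highest.

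In saline-infused CCN2fl/fl aortas, Klf9 had the highest mean level of the family (91.5 ± 13.1 FPKM, SD, n = 3), followed by Klf2 at 88.4 ± 24.8 and Klf6 at 60.2 ± 10.8, and FPKM are per length, so that levels of different genes can be set side by side. Neighbours in this order overlapped between mice among these 3 genes. Klf4 (37.0 ± 5.97 FPKM) and Klf15 (29.8 ± 2.41) came next and overlapped each other, and Klf4 lay below every Klf6 value. Klf13 followed at 25.0 ± 2.81 FPKM, apart from both of its neighbours. Klf3 (10.9 ± 1.33), Klf10 (9.04 ± 1.09) and Klf7 (6.81 ± 1.18) were lower, with Klf3 overlapping Klf10 and Klf10 overlapping Klf7, and Klf5 was the lowest at 1.26 ± 0.479 FPKM. The 3 leading genes held 66.8 ± 1.99% of the summed FPKM of the 10 members.

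CSA aortas had another order. Klf6 was first at 59.4 ± 16.9 FPKM (SD, n = 3), Klf2 second at 45.5 ± 16.2 with overlapping values, and Klf9 came after them at 18.0 ± 1.28, apart from Klf2. Klf9, Klf13 (13.8 ± 3.802 FPKM), Klf4 (13.0 ± 1.40) and Klf10 (11.2 ± 3.16) each overlapped the next in order, the last of them Klf3 (10.1 ± 2.21), which lay apart from Klf15 below it. Klf15 had moved from rank 5 in CFS to rank 8 in CSA, at 3.07 ± 1.21 FPKM, a level that overlapped that of Klf7 (3.0002 ± 0.607). Without CSA mouse 03, whose Klf6 value was the highest of all 12 libraries and whose Klf2 value was the lowest, Klf6 (49.1 and 50.1 FPKM) would lie below Klf2 (55.97 and 53.7 FPKM).

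**Figure D2:**
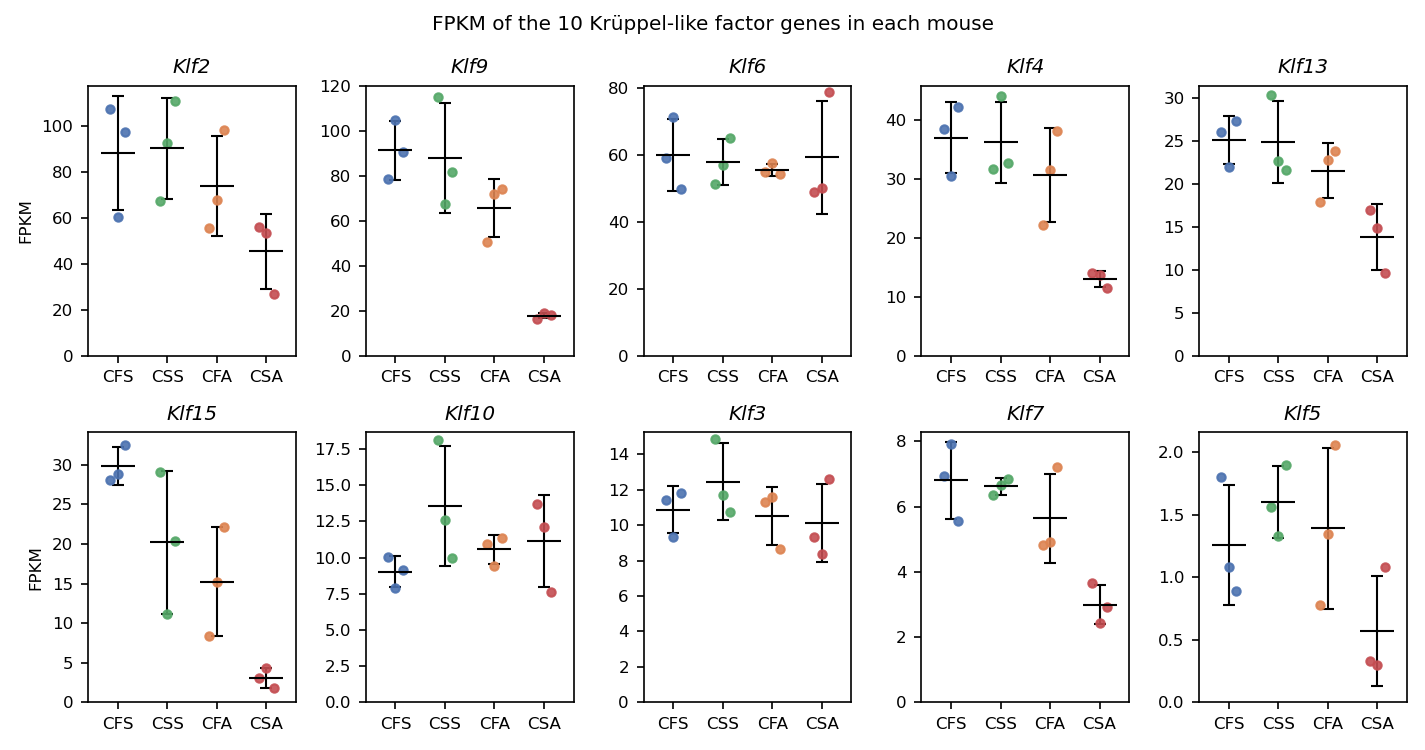
FPKM (y axis, from 0, own scale for each gene) of the 10 members in each mouse, by group (x axis), with points for mice and bars for the mean and SD of 3 mice. All 3 CSA values of Klf9, Klf15, Klf4, Klf7 and Klf13 lie below all 3 CFA values, whereas those of Klf3, Klf6 and Klf10 lie on both sides of the CFA values.

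The comparison of CSA with CFA asked what loss of smooth muscle CCN2 changed under Ang II. Of the 10 members, 5 were lower in CSA at an adjusted p under 0.05 (Klf4, Klf7, Klf9, Klf13 and Klf15) and 0 were higher, beside 21.2% of all tested genes lower and 19.5% higher. With the study's second limit, an absolute log2 fold change over 1.5, 2 members remained lower (Klf9 and Klf15), beside 8.27% of all tested genes. The same 5 members were the ones whose CSA values all lay below all CFA values, which held in that direction for 25.1% of all tested genes. The median log2 fold change was -0.81 over the members and -0.04 over all tested genes. Without CSA mouse 03, 5 members passed again as lower, beside 24.9% of all tested genes lower and 23.8% higher, but Klf13 was lost (log2 fold change -0.43, adjusted p = 0.0663) and Klf5 gained (-1.75, adjusted p = 0.00454).

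Klf9 (ENSMUSG00000033863, chromosome 19, 23141226 to 23168134), a GC-box-binding factor induced by glucocorticoids, measured 50.9, 72.1 and 74.2 FPKM under CFA (mice 71, 72 and 74) against 16.5, 19.0 and 18.3 under CSA (mice 01, 02 and 03). The CSA values were close to each other, and the highest of them was well under the lowest CFA value. The CSA mean was 27.3% of the CFA mean, and limma gave a log2 fold change of -1.85 with a standard error of 0.21 and an adjusted p of 5.39e-05. It was nearly the same without CSA mouse 03 (-1.86, adjusted p = 0.000134), and Klf9 passed under all 15 alternatives run, with log2 fold changes from -2.02 to -1.66.

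Klf15 (ENSMUSG00000030087, chromosome 6, 90462576 to 90475238), known for metabolic control and for restraint of vascular inflammation, measured 8.40, 15.2 and 22.1 FPKM under CFA against 3.05, 4.29 and 1.87 under CSA. Both groups were spread, and the lowest CFA value, in mouse 71, was still above the highest CSA value, in mouse 02. The CSA mean was 20.1% of the CFA mean, and the change by limma was -2.24 on the log2 scale, with a standard error of 0.42 and an adjusted p of 0.00133. It was -1.94 (adjusted p = 0.00444) without CSA mouse 03, which had the lowest value, and -1.51 with array weights, and it ranged from -2.62 to -1.51 over the 15 alternatives.

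Klf4 (ENSMUSG00000003032, chromosome 4, 55527143 to 55532466), a regulator of phenotypic switching in smooth muscle and of flow responses in endothelium, measured 22.2, 31.6 and 38.1 FPKM under CFA against 14.0, 13.6 and 11.4 under CSA. The 3 CSA values lay in a narrow band below CFA. The CSA mean was 42.5% of the CFA mean (log2 fold change -1.20, 95% interval -1.67 to -0.73, adjusted p = 0.00105, limma). Without CSA mouse 03 the log2 fold change was -1.11 (adjusted p = 0.00277).

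Klf7 (ENSMUSG00000025959, chromosome 1, 64029447 to 64122282), a factor best known from neurons and adipocytes, measured 4.82, 4.90 and 7.22 FPKM under CFA against 3.65, 2.44 and 2.91 under CSA. The groups did not overlap, and the change by limma was -0.88 on the log2 scale (adjusted p = 0.00454, standard error 0.20). Of its exonic bases, 39.4% also lie in exons of the antisense transcript Gm13748 or the long noncoding transcript Gm26649, both on the other strand. Whether the counting used strand is not given in the sources used here, so fragments of these genes and of Klf7 cannot be told apart there.

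Klf13 (ENSMUSG00000052040, chromosome 7, 63886351 to 63938915), known from T lymphocytes and heart, measured 17.9, 22.8 and 23.8 FPKM under CFA against 16.9, 14.9 and 9.57 under CSA. The gap between the groups, from 16.9 to 17.9 FPKM, was small beside the spread inside each. Its change of -0.67 on the log2 scale (adjusted p = 0.0315 from limma, standard error 0.22) stayed under the threshold in 8 of 15 alternatives and missed it in 7, among them those without CFA mouse 72 (adjusted p = 0.0853), without CFA mouse 74 (adjusted p = 0.103) and without CSA mouse 03, and adjusted p ranged from 0.015 to 0.103. Klf13 transcripts have a GC content of 55.5%, and the log2 fold change was -0.45 (adjusted p = 0.0382) once the GC trend was removed from each library.

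The other 5 members did not pass. Klf5 (ENSMUSG00000005148, chromosome 14, 99298691 to 99315036), a factor induced in injured vessels, measured 0.777, 1.34 and 2.06 FPKM under CFA against 0.331, 0.299 and 1.08 under CSA. CSA mouse 03 lay among the CFA values and the other 2 CSA mice below them, and the log2 fold change was -1.25 (95% interval -2.28 to -0.22, adjusted p = 0.0528, limma). With a pseudocount of 1 it was -0.61. It passed without CFA mouse 71 (adjusted p = 0.0323) and, as given above, without CSA mouse 03.

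Klf2 (ENSMUSG00000055148, chromosome 8, 72319033 to 72321656), a flow-induced endothelial factor, measured 55.9, 67.9 and 98.3 FPKM under CFA against 55.97, 53.7 and 26.8 under CSA. CSA mice 01 and 02 were near the lowest CFA mouse, and CSA mouse 03 was lowest. The log2 fold change was -0.74 (95% interval -1.48 to 0.01, adjusted p = 0.106, limma), -0.39 without CSA mouse 03 (adjusted p = 0.309) and -0.19 with the GC trend removed (adjusted p = 0.607).

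Klf6 (ENSMUSG00000000078, chromosome 13, 5861482 to 5870394), a factor of injury responses and of macrophage activation, measured 54.9, 57.7 and 54.3 FPKM under CFA against 49.1, 50.1 and 78.9 under CSA. CSA mice 01 and 02 lay just below the CFA values and mouse 03 above them. The log2 fold change was 0.06 (95% interval -0.37 to 0.49, adjusted p = 0.834, limma), and it turned to -0.16 without CSA mouse 03 (adjusted p = 0.380).

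Klf10 (ENSMUSG00000037465, chromosome 15, 38291463 to 38300706), the TGF-β-inducible early gene, measured 10.97, 9.43 and 11.3 FPKM under CFA against 13.7, 12.1 and 7.62 under CSA, with a log2 fold change of 0.04 (95% interval -0.51 to 0.58, limma). Klf3 (ENSMUSG00000029178, chromosome 5, 64803388 to 64832901), a repressor that recruits CtBP, measured 11.3, 11.6 and 8.64 FPKM under CFA against 9.33, 8.39 and 12.6 under CSA. Its log2 fold change was -0.07 (95% interval -0.49 to 0.36). Of its exonic bases, 3.59% are shared with the transcript Gm20033 on the other strand. In both genes the groups overlapped, and the intervals hold changes in either direction.

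**Figure D3:**
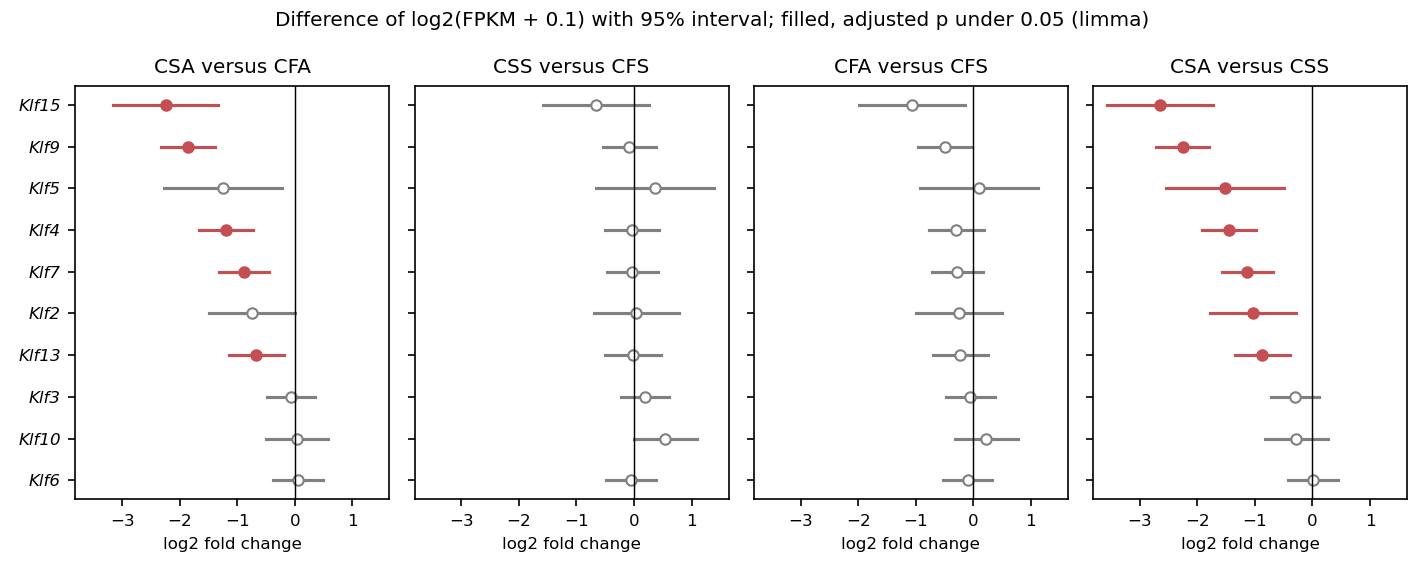
Log2 fold change of log2(FPKM + 0.1) with its 95% interval (x axis) for the 10 members (y axis, ordered by CSA versus CFA) in 4 comparisons, with filled red points for an adjusted p under 0.05 from limma. Members pass in the comparisons that hold CSA (5 and 7 of 10) and 0 of 10 pass in CSS versus CFS and in CFA versus CFS.

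Under saline, the comparison of CSS with CFS asked what the deletion changed without Ang II. Of the members, 0 passed in limma and 0 had an unadjusted p under 0.05, beside 0.0204% of all tested genes at the adjusted threshold and 6.3% at an unadjusted p under 0.05. The same 0 held under all 15 alternatives. Klf15 measured 28.0, 28.8 and 32.5 FPKM in CFS mice 68, 69 and 70 and 29.1, 11.1 and 20.4 in CSS mice 54, 55 and 56. CSS mouse 54 lay inside the CFS range and the other 2 CSS mice below it, and the log2 fold change of -0.66 (95% interval -1.58 to 0.26) was the lowest of the family. Klf10 had the highest, 0.54 (95% interval -0.0010 to 1.09, adjusted p = 0.790, limma), with 10.1, 7.89 and 9.16 FPKM in CFS and 18.1, 12.6 and 9.96 in CSS. CSS mouse 56 lay inside the CFS range. Klf9 measured 78.7, 105 and 91.0 FPKM in CFS and 115, 67.5 and 82.0 in CSS, and Klf4 38.4, 30.4 and 42.1 in CFS and 31.6, 44.1 and 32.7 in CSS. The CSS values of Klf9 ran from below to above the CFS range, with a log2 fold change of -0.08 (95% interval -0.55 to 0.39). For Klf4, CSS mice 54 and 56 lay inside the CFS range and mouse 55 above it. Its log2 fold change was -0.04 (95% interval -0.51 to 0.44).

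The comparison of CFA with CFS asked what Ang II changed in CCN2fl/fl aortas. Again 0 members passed in limma, under the main setting and all 15 alternatives, beside 0.0341% of all tested genes, and 2 of 10 had an unadjusted p under 0.05, beside 9.42% of all tested genes. These were Klf9 (log2 fold change -0.49, unadjusted p = 0.0427 and adjusted p = 0.512 from limma) and Klf15 (-1.06, unadjusted p = 0.0268 and adjusted p = 0.442), whose CFA values also lay below all of their CFS values, as did 10.8% of all tested genes. The CFA mean of Klf9 was 71.9% of the CFS mean and that of Klf15 was 51.2%. Klf4 had a log2 fold change of -0.29 (95% interval -0.76 to 0.18).

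In CCN2SMCΔ aortas, the comparison of CSA with CSS gave 7 members lower at the adjusted threshold (Klf2, Klf4, Klf5, Klf7, Klf9, Klf13 and Klf15) and 0 higher, beside 23.9% of all tested genes lower and 22.3% higher. With the fold limit 3 were lower (Klf5, Klf9 and Klf15), beside 9.36% of all tested genes. The same 7 had CSA values below every CSS value, beside 29.1% of all tested genes. Klf15 fell to 15.2% of its CSS mean (log2 fold change -2.65, adjusted p = 0.000365, limma) and Klf9 to 20.4% (-2.26, adjusted p = 9.68e-06). Klf4 fell to 36.0% (-1.46, adjusted p = 0.000229), Klf5 to 35.7% (-1.52, adjusted p = 0.0204) and Klf7 to 45.3% (-1.13, adjusted p = 0.000786). Klf13 fell to 55.5% (-0.87, adjusted p = 0.00724). Klf2 measured 67.4, 92.6 and 111 FPKM in CSS (log2 fold change to CSA -1.03, adjusted p = 0.0272), but its call was lost without CSA mouse 03 (-0.69, adjusted p = 0.0793) and with the GC trend removed (-0.38, adjusted p = 0.281), and also without CSS mouse 55 (adjusted p = 0.0712) or CSS mouse 56 (adjusted p = 0.0998). The Klf5 call was lost without CSS mouse 54, CSS mouse 56, CSA mouse 01 or CSA mouse 02 (adjusted p from 0.0526 to 0.0709). Its log2 fold change of -1.52 was just past the fold limit, and it was -0.76 with a pseudocount of 1. Klf3 passed without CSA mouse 03 (-0.47, adjusted p = 0.0409) and not with it (-0.30, adjusted p = 0.218). So 7 members passed either way, beside 3504 of 14676 tested genes lower with that mouse and 4043 lower without it. This comparison and that of CSA with CFA share the CSA mice, and this one and that of CSS with CFS share the CSS mice.

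The interaction, the genotype difference under Ang II minus that under saline, passed for 3 of the 10 members, all negative, beside 13.7% of all tested genes with a negative and 12.8% with a positive interaction at that threshold. It was -1.77 for Klf9 (standard error 0.30, adjusted p = 0.0016, limma), -1.16 for Klf4 (standard error 0.30, adjusted p = 0.0158) and -0.86 for Klf7 (standard error 0.28, adjusted p = 0.0450). The Klf7 call was lost under 10 of 20 alternatives, including without CFS mouse 68 or 70, any CSS mouse, CFA mouse 74 or CSA mouse 02 (adjusted p up to 0.106). Klf9 also exceeded the fold limit, as did 7.31% of all tested genes in the negative direction. For Klf15 the interaction was -1.58 (95% interval -2.88 to -0.29) with an adjusted p of 0.071, beside its lower saline values in 2 of 3 CSS mice, and it passed without CSS mouse 55 (adjusted p = 0.0292), CFA mouse 71 (adjusted p = 0.0313) or CSA mouse 02 (adjusted p = 0.0465). For Klf13 it was -0.65 (95% interval -1.33 to 0.04, adjusted p = 0.154, limma), and for Klf2 -0.78 (95% interval -1.83 to 0.28). The Klf2 value ranged from -0.97 to -0.11 over the 20 alternatives (adjusted p from 0.179 to 0.864, limma). Klf5 had an interaction of -1.61 (95% interval -3.07 to -0.16, adjusted p = 0.0973) that passed without CSA mouse 03 (-2.12, adjusted p = 0.0116).

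The summed FPKM of the 10 members was 344 to 368 in CFS, 327 to 366 in CSS, 238 to 340 in CFA and 171 to 183 in CSA. The 3 CSA sums lay close together and below all others, and the CFA sums lay below all CFS sums. The CSA mean was 61.0% of that in CFA and 50.5% of that in CSS, and the CFA mean was 80.8% of that in CFS. The two-sided exact permutation test gave p = 0.1 in each of these 3 comparisons, which is the smallest value that 3 mice against 3 allow, and p = 0.5 for CSS against CFS (97.8%). Klf9 made up 25.5 ± 4.59% of the sum in CFS, 24.9 ± 5.77% in CSS, 22.6 ± 1.68% in CFA and 10.1 ± 0.932% in CSA (SD, n = 3). Klf15 went from 8.28 ± 0.623% in CFS to 1.72 ± 0.654% in CSA. Klf6 made up 16.8 ± 3.64% in CFS and 33.7 ± 10.8% in CSA, and Klf2 24.4 ± 6.10% and 25.4 ± 8.46%.

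**Figure D4:**
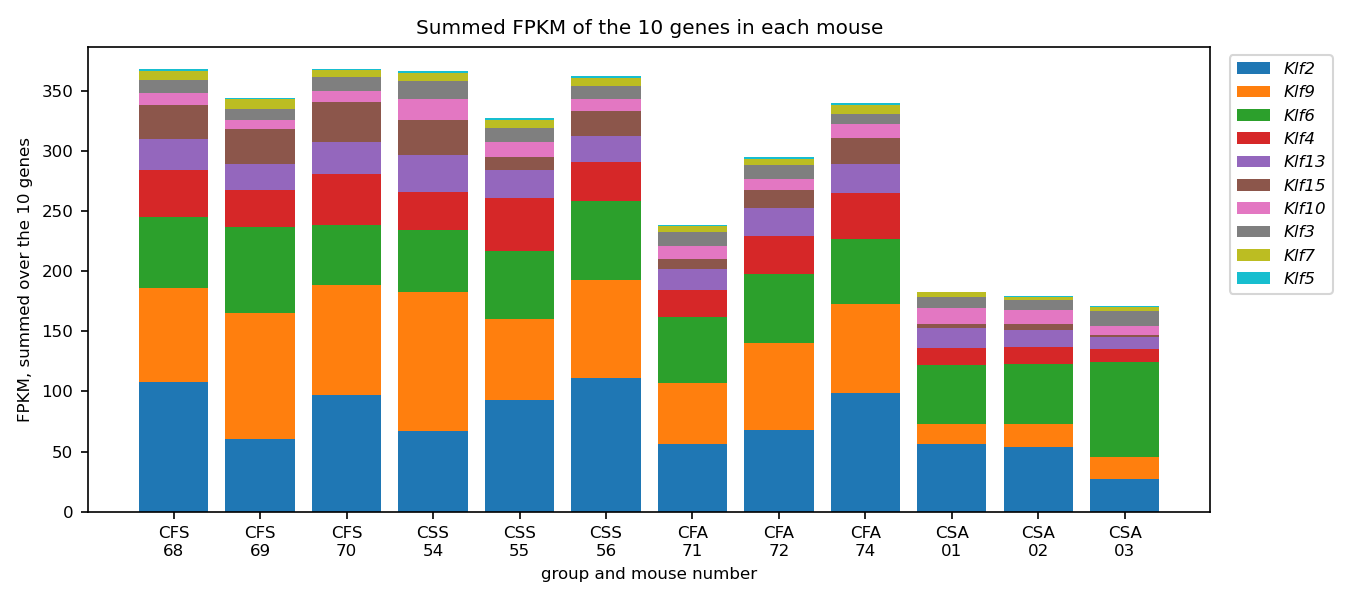
FPKM summed over the 10 members (y axis, from 0) in each mouse (x axis, group and number), with colours for the genes. The 3 CSA sums of 171 to 183 lie below the 9 others, the Klf9 and Klf15 blocks are thin there, and the Klf6 block is not.

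By root mean square distance of centred log2(FPKM + 0.1) over the 12 libraries, among 4691 genes with a mean of at least 10 FPKM, the genes most like Klf9 were Rhobtb1 (distance 0.21), Fam129a (0.21) and Tns2 (0.21), beside a root mean square of 0.97 for Klf9 itself. Rhobtb1 averaged 21.3 FPKM in CFS, 20.8 in CSS, 16.9 in CFA and 3.70 in CSA. Those most like Klf15 were Plin4 (0.32), a lipid droplet protein gene, Sort1 (0.46) and again Tns2 (0.48), beside 1.33 for Klf15 itself. Those most like Klf4 were Ptpn21, Cds2 and Frmd6, each at 0.24, beside 0.65 for Klf4 itself. The 12 points of each gene share the same 4 groups and libraries, and the distances are given as a description.

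Of the 7 other Krüppel-like factor genes, 4 passed the filter and 3 were lower in CSA than in CFA at the adjusted threshold, the 5 of 10 members and 21.2% of all tested genes standing beside that count. Klf12, a repressor, measured 2.94, 2.56 and 2.62 FPKM in CFA and 1.14, 0.763 and 1.31 in CSA, a change by limma of -1.29 on the log2 scale (adjusted p = 0.000199). Klf11, the second TGF-β-inducible member, measured 6.20, 9.61 and 11.1 FPKM in CFA and 6.12, 5.21 and 4.56 in CSA (-0.72, adjusted p = 0.0361), and did not pass without CSA mouse 03. Klf8 measured 1.17 to 1.98 FPKM in CFA and 0.770 to 1.12 in CSA (-0.70, adjusted p = 0.0321). Klf16 measured 7.74, 7.26 and 1.20 FPKM in CSA, with the lowest value in mouse 03, and 6.42 to 8.81 in CFA (-0.78, adjusted p = 0.298). Klf1, the erythroid factor, reached at most 0.303 FPKM in any library, Klf14 was above 0 in 1 CFS mouse only and Klf17 was at 0 in all 12. Of the 9 related Sp factor genes, 4 passed the filter and Sp1 was lower in CSA (-0.39, adjusted p = 0.0361). Sp2, Sp3 and Sp4 did not pass, at -0.63, 0.38 and -0.16, and Sp5, Sp6, Sp7, Sp8 and Sp9 were below the filter.

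Klf4 is known to repress the activity of serum response factor with its co-activator myocardin on smooth muscle genes. The list of this factor and its cofactors also holds the Elk genes, to which that does not extend. Of its 7 genes, 3 were lower and 1 higher in CSA than in CFA, beside 21.2% of all tested genes lower and 19.5% higher. Myocd, the smooth muscle co-activator myocardin, had a mean of 20.3 ± 9.21 FPKM in CFA against 2.80 ± 0.814 under CSA (SD, n = 3), a change by limma of -2.76 on the log2 scale (adjusted p = 6.77e-05). Srf fell by 1.57 on the log2 scale (log2 fold change -1.57, adjusted p = 0.00626) and Elk1 by 1.10 (-1.10, adjusted p = 0.0401), while Elk3 rose (0.82, adjusted p = 0.000275). Mrtfb, Mrtfa and Elk4 did not pass, at -0.63, 0.23 and 0.19, and Mrtfa passed as higher without CSA mouse 03. All 13 contractile genes fell, with a median log2 fold change of -2.86, led by Synpo2 (-4.28), Myh11 (-4.17) and Cnn1 (-3.80), and Acta2 averaged 5421 ± 1397 FPKM in CFA and 730 ± 45.5 in CSA (SD, n = 3). All 13 had a smaller CSA-to-CFA ratio than Klf4, with log2 fold changes from -4.28 to -1.88.

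Genes of the pathways above and below the factors were mixed, and the counts of each list stand beside 21.2% of all tested genes lower and 19.5% higher (24.9% and 23.8% without CSA mouse 03). Of 6 genes of the ERK5-MEF2 pathway, which is known to induce Klf2 and Klf4, Mef2d (-1.03) and Mef2c (-0.68) fell and Mef2a (-0.43) and the other 3 did not pass, whereas Mef2a passed as lower and Mapk7 as higher without CSA mouse 03. Of 6 tested endothelial genes known as targets of Klf2 and Klf4, Nos3 (-2.37, adjusted p = 0.0207, limma) and Thbd (-2.01, adjusted p = 3.19e-06), an anticoagulant receptor, fell. The adhesion molecules Sele (1.81, adjusted p = 0.00504) and Vcam1 (1.79, adjusted p = 0.00236) rose. S1pr1 (-0.26, adjusted p = 0.657) and Edn1 (0.11, adjusted p = 0.872) did not pass. Nos3 was not called without CSA mouse 03. In CSS versus CFS 0 of these 6 passed in limma, beside 0.0204% of all tested genes, with log2 fold changes from -0.09 (S1pr1) to 1.83 (Sele). Of 14 glucocorticoid-induced and clock genes, 3 fell in CSA (Nr1d1, Tef and Nr3c1, the glucocorticoid receptor gene, which fell by 0.60, log2 fold change -0.60) and 0 rose, so that the share that fell was near that of all tested genes. Glucocorticoid targets short of the threshold lay in either direction, and Zbtb16 was at -1.84 (adjusted p = 0.102), Fkbp5 at 1.05 (adjusted p = 0.166), Tsc22d3 at 0.74 (adjusted p = 0.225) and Sgk1 at 0.09 (adjusted p = 0.727). Dbp, a clock output gene, was at -1.10 (adjusted p = 0.127). Tef was lost and Per2 gained without CSA mouse 03. Under saline, in CSS versus CFS, 0 of the 14 passed in limma, beside 0.0204% of all tested genes. There 7 of the 14 had an unadjusted p under 0.05, beside 6.3% of all tested genes. The log2 fold changes over the list ran from -1.42 for Arntl to 1.99 for Dbp, both clock genes. The part of these differences in the saline values of the members was not tested.

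Of 7 tested genes of amino acid and glucose handling under Klf15, 4 fell and 0 rose in CSA, beside the same shares of all tested genes (21.2% lower and 19.5% higher), which also stand beside the lists that follow. Pck1, encoding an enzyme of gluconeogenesis and of glycerol synthesis in fat, had a log2 fold change of -4.12 (adjusted p = 0.0131, limma), Slc2a4, encoding the insulin-dependent glucose transporter, of -3.56 (adjusted p = 0.000677) and Gpt, encoding alanine aminotransferase, of -1.24 (adjusted p = 0.026). The last was not called without CSA mouse 03. Of 11 genes of the TGF-β response and receptors, 3 rose (Tgif1 1.98, Tgfb1 0.77 and Tgfbr2 0.42) and Ski, a repressor of Smads, fell by 0.78 (-0.78, adjusted p = 0.000354), beside the 0.04 of Klf10. Of 20 immediate early genes, Egr2 rose (1.68, adjusted p = 0.00224) and Fosb (-2.27), Jund (-1.78) and Egr1 (-0.94) fell, both counts being a smaller share of the list than of all tested genes. Without CSA mouse 03, 4 rose (Fosl1, Junb, Egr2 and Ier5) and 2 fell (Fosb and Jund), so Egr1 was lost. Beside this stand 23.8% of all tested genes higher and 24.9% lower in that setting. Of 13 co-regulators and ubiquitin ligases of the family, 0 passed in limma in either direction and 1 had an unadjusted p under 0.05, beside 49% of all tested genes. The largest absolute log2 fold changes were those of Kat2b (-0.39), Ncor1 (-0.38) and Ctbp1 (-0.35). Without CSA mouse 03, 5 passed as lower (Sin3a, Hdac2, Kat2b, Ncor1 and Wwp1), beside 24.9% of all tested genes.

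**Figure D5:**
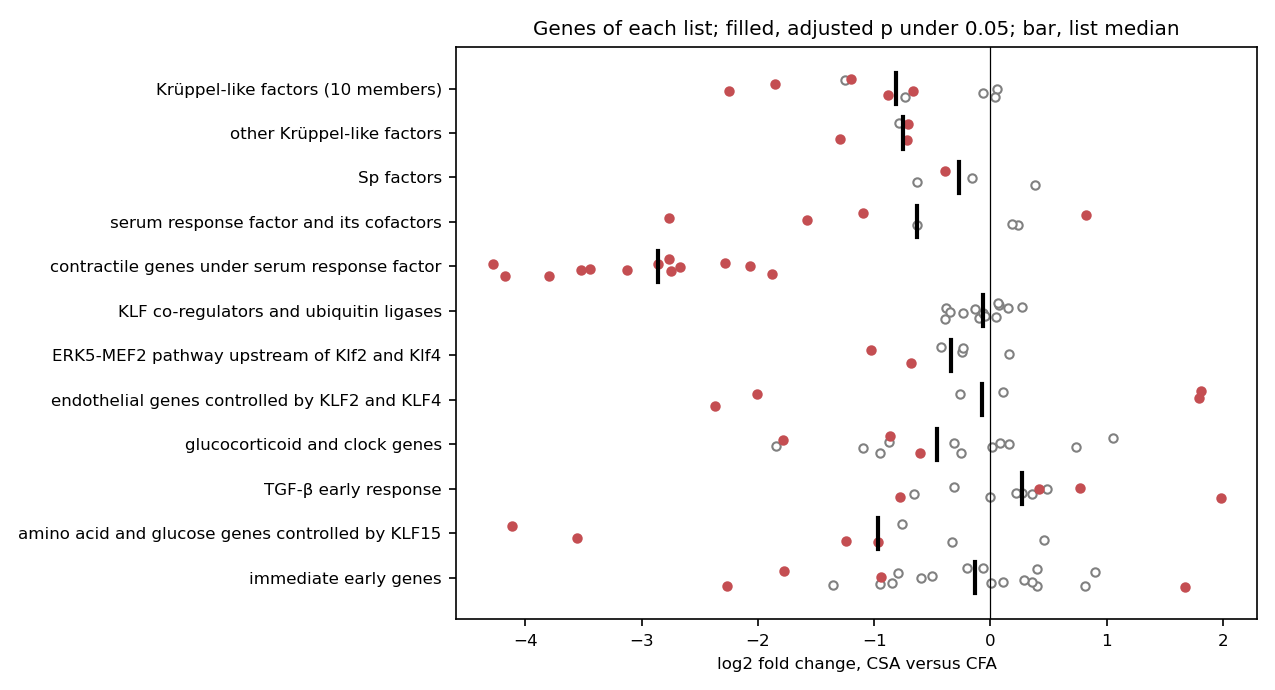
Log2 fold change of CSA versus CFA (x axis) for the tested genes of each list (y axis), with filled red points for an adjusted p under 0.05 from limma and a black bar at the list median. The medians are -0.81 for the 10 members, -2.86 for the contractile genes and -0.07 for the co-regulators.

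Markers of the cell types in the wall moved between the same groups. All 6 smooth muscle markers were lower in CSA than in CFA, with summed FPKM of 785 to 931 in CSA, 5377 to 8214 in CFA, 7565 to 8568 in CSS and 8010 to 10073 in CFS, so the tissue of all groups held smooth muscle RNA and CSA the least. Myh11, Cnn1 and Lmod1 (-3.52) led them, and all 6 are also among the 13 contractile genes given above. All 8 macrophage markers were higher, with sums of 1511 to 1727 in CSA and 234 to 462 in CFA, led by Fcgr1 (5.24), Itgam (3.61) and Cd14 (3.26). Without CSA mouse 03, 7 of them passed as higher and Mrc1 was lost. All 6 tested neutrophil markers and all 7 T cell markers were higher, with sums of 512 to 564 against 11.01 to 28.0 FPKM and 27.3 to 39.2 against 1.0095 to 2.62 FPKM, led by S100a8 (5.27), Cxcr2 (5.12) and S100a9 (4.81) and by Trac (5.07), Cd4 (3.93) and Cd3d (3.86). Of 8 endothelial markers, Vwf (-2.36), Tek (-1.89) and Pecam1 (-1.84) were lower and Emcn (1.56) higher, with sums of 136 to 173 in CSA and 216 to 464 in CFA. Of 7 adipocyte markers, Lep (-3.41), Plin1 (-2.88) and Pnpla2 (-1.32) were lower and Ucp1 (-2.17, adjusted p = 0.233, limma) did not pass, with sums of 82.8 to 127 FPKM in CSA and 135 to 338 in CFA. Of 8 fibroblast markers, 4 were higher (Lum 1.44, among others) and 2 lower (Pi16 -1.17 and Dpt -1.13). Of 5 tested erythroid markers, all 5 were lower, led by Hbb-bt (-3.18), Hbb-bs (-3.07) and Hba-a1 (-3.01), with sums of 63.2 to 621 FPKM against 767 to 2496, and 0 of them passed without CSA mouse 03. Of 2 tested B cell markers, Cd79b was higher (2.43) and Cd79a was at 0.03, and of 4 tested skeletal muscle markers 0 passed in limma and 0 had an unadjusted p under 0.05, beside 49% of all tested genes, with Acta1 at -3.15, Tnnt3 at 1.19, and Ckm and Myh4 at 0 in all CSA mice. Of the 10 members, 5 were lower between the same mice, beside 21.2% of all tested genes. The part of these marker levels in the difference of the members was not tested.

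Within groups, single libraries were high or low in several members. CFS mouse 69 had the lowest Klf2 value of its group (60.4 FPKM) and the lowest sum of endothelial markers of all 12 libraries (102 FPKM against 421 and 418 in the other CFS mice), and its Klf9 value (105 FPKM) was the highest of the group. The same mouse had the highest CFS sums of erythroid markers (1248 FPKM against 153 and 134) and of immediate early genes (1362 FPKM against 804 and 546). In CFA, mouse 74 had the highest value of 8 of the 10 members, among them Klf2 (98.3 FPKM), Klf4 (38.1), Klf15 (22.1) and Klf7 (7.22). It had the lowest of Klf3 (8.64) and Klf6 (54.3). Its endothelial sum was the highest of the group (464 FPKM) and its smooth muscle sum the lowest (5377 FPKM). CFA mouse 72 had the highest macrophage marker sum of the group (462 FPKM against 251 in mouse 71 and 234 in mouse 74). Skeletal muscle markers were high in CFS mouse 68 and CSS mouse 55 (sums of 153 and 244 FPKM against 2.58 to 5.59 in CFA and CSA), and Klf15 measured 28.0 and 11.1 FPKM in these mice, within and below the range of the other saline mice. Adipocyte marker sums were 251, 269 and 794 FPKM in CFS mice 68, 69 and 70, where Klf15 measured 28.0, 28.8 and 32.5. In CSS mice 54, 55 and 56 these sums were 335, 159 and 111 FPKM, beside Klf15 values of 29.1, 11.1 and 20.4. In CFA mice 71, 72 and 74 they were 135, 296 and 338 FPKM, beside Klf15 values of 8.40, 15.2 and 22.1. In CSA mice 01, 02 and 03 they were 82.8, 127 and 95.8 FPKM, beside Klf15 values of 3.05, 4.29 and 1.87. The order of the mice was the same for both in CFS and CFA and differed in CSS and CSA. The part of these differences in the values of the members was not tested.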

How the data were processed

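Poly(A) RNA of 12 mouse aortas was sequenced as paired reads. The deposited values are FPKM per gene, made by the authors; the submitters' processing notes name HISAT2 (2.0.5), StringTie (1.3.3b), featureCounts (1.5.0-p3) and mm10 without saying what each did. The FPKM steps gave whole fragments for 98.1% to 98.5% of low values (tolerance 0.05), and these gave the depths. Symbols, positions and GC content came from the GENCODE annotation of GRCm38, promoters from RefSeq. From the FPKM, limma 3.58.1 (R 4.3.3, trend and robust) was fitted to log2(FPKM + 0.1) of genes with at least 1 FPKM in at least 3 libraries, with 4 group means over 12 libraries and Benjamini-Hochberg adjustment, and was tested on simulated data. A fold change is on that scale and understates changes of low genes. Named genes were the members, all other Krüppel-like and Sp factors, Ccn2, and the 3 genes most like Klf4, Klf9 and Klf15. Also named were the 3 genes of each list with the largest absolute change (all for serum response factor). Further list genes that passed, or whose call changed without CSA mouse 03, were named after their values were seen. So were 3 glucocorticoid targets, Arntl, S1pr1 and Edn1. The members and lists were chosen with earlier results of these data known. Libraries are from separate mice. Alternatives were other pseudocounts, filters, scalings and variance models, each mouse left out and, added after seeing the data, GC-corrected values.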

Additional observations from a re-analysis of the deposited data

Results flagged for a closer look

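The genotype difference under Ang II differed from that under saline, by the interaction term in limma, for 3 of the 10 members. Beside this stand 13.7% of all tested genes with a negative and 12.8% with a positive interaction. For Klf9 the difference of differences was -1.77 on the log2 scale, for Klf4 it was -1.16 and for Klf7 it was -0.86. For Klf9 the call held under all 20 alternatives run (adjusted p from 0.000877 to 0.00555), and for Klf4 as well (adjusted p from 0.00617 to 0.0401). For Klf7 it was lost in 10 of 20, with adjusted p from 0.0169 to 0.106, and Klf7 shares exonic bases with transcripts on the other strand.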

How the results depend on the processing

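No paired analysis was possible because the groups share no mouse numbers. In CSA versus CFA, Klf4, Klf7, Klf9 and Klf15 passed under all 15 alternatives. Klf13 was lost under 7, including no filter on low values, scaling to library totals and array weights, and Klf5 passed under 5 of the 14 in which it was tested; the cause was not tested. Members past the threshold numbered 4 to 6 with 1 mouse left out, 5 to 7 in CSA versus CSS, 2 to 4 for the interaction and 0 to 0 in the other 2 comparisons. Lower calls among all 14676 tested genes also moved, from 2511 to 3655 in CSA versus CFA. They ran from 2875 to 4043 in CSA versus CSS, and negative interactions from 1604 to 2808. With the fold limit added, members numbered 2, 3 and 1 in CSA versus CFA, CSA versus CSS and the interaction, beside 8.27%, 9.36% and 7.31% of all tested genes. Members near 0 changed sign. In CSA versus CFA, Klf3 was at 0.014 with FPKM scaled to library totals and ranged from -0.23 to 0.055 with 1 mouse left out, above 0 without CFA mouse 72 or CSA mouse 02. Klf6 was at -0.14 with array weights and -0.020 with GC-corrected values, and ranged from -0.16 (without CSA mouse 03) to 0.18. Klf10 ranged from -0.13 to 0.29 with 1 mouse left out, below 0 without CFA mouse 72, CSA mouse 01 or CSA mouse 02. In CSA versus CSS, Klf6 was at -0.21 with array weights and -0.089 with GC-corrected values, and ranged from -0.21 to 0.13, below 0 without CSS mouse 54, CSS mouse 55 or CSA mouse 03. In CSA versus CSS, Klf2 was lost with GC-corrected values, with the fit of only the 2 groups and without CSS mouse 55, CSS mouse 56 or CSA mouse 03, and Klf5 without CSS mouse 54, CSS mouse 56, CSA mouse 01 or CSA mouse 02 (adjusted p up to 0.0709). Scaling by the median of ratios changed no call. With 3 mice per group and 33 to 227 fragments, Klf5 was the least precise member.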
